A study of Mus musculus with 12 samples.

Results

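The Cyp4 genes described here encode cytochrome P450 enzymes that hydroxylate the terminal, or omega, carbon of fatty acids. The 10 genes were taken by name: Cyp4a10, Cyp4a14, Cyp4a31, Cyp4a12a, Cyp4a12b, Cyp4f13, Cyp4f14, Cyp4f15, Cyp4b1 and Cyp4v3. Each was read from a probe set that names it alone, and 9 of the 10 had such a probe set, of 19938 genes measured in this way. Each of the 9 had a single probe set of this kind. Cyp4v3 appeared only on a probe set that also names Klkb1, the gene for plasma prekallikrein, and is given apart from the others.

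Omega-hydroxylation starts a side route of fatty acid breakdown in the endoplasmic reticulum. The hydroxylated acid is oxidised by alcohol and aldehyde dehydrogenases to a dicarboxylic acid, whose chain is then shortened in peroxisomes. In mice, Cyp4a10 and Cyp4a14 are textbook targets of PPARα, a nuclear receptor that is activated by fatty acids and binds DNA together with a retinoid X receptor. Cyp4f enzymes also inactivate leukotriene B4, a lipid mediator that attracts neutrophils, and other eicosanoids.

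Gene expression was measured on Affymetrix mouse gene arrays in whole liver of suckling pups killed at postnatal day 2 (P2). Livers of 6 Ppara-/- pups, 3 males and 3 females, were compared with livers of 6 Ppara+/+ pups, 3 males and 3 females, with 1 array per pup. The pups came from crosses of heterozygous parents and were untreated, so both genotypes could share a litter, a uterus and a dam. The Ppara-/- pups lacked the receptor in the whole body, not in hepatocytes alone. The strain is SV129 in the sample labels and C57BL/6 in the methods of the study. RNA came from 3 litters per genotype, but the labels do not tie a pup to its litter, so p-values measure the spread between pups and take no account of litter.

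Values are log2 signals after robust multi-array averaging (RMA), so a difference of 1 is a factor of 2, and levels of different probe sets are not compared. The median signal of an array lay between 7.16 and 7.20, and any pair of arrays correlated at 0.989 to 0.996. The genotype term of a limma fit that also held sex was tested, with Benjamini-Hochberg adjustment across the 35556 probe sets, and a gene passed at an adjusted p under 0.05. All 4 measured sex check genes separated the pups labelled male from those labelled female. Ppara itself had log2 signals of 10.21, 10.27 and 10.33 (lowest, median, highest) in Ppara-/- livers and 10.98, 11.22 and 11.27 in Ppara+/+ livers. The groups did not overlap (log2 fold change -0.89, SE 0.0488, adjusted p = 1.2e-06). Which part of the gene this probe set reads was not determined, so the level checks the labels only in direction.

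Of the 9 measured Cyp4 genes, 6 were lower in Ppara-/- livers, 0 were higher and 3 did not pass. Over all genes tested, 1.12% were called lower and 1.99% higher. The median log2 fold change was -1.16 over the 9 Cyp4 genes and -0.01 over all genes. All 5 measured Cyp4a genes fell, by more than 2-fold each, whereas of the 3 measured Cyp4f genes only Cyp4f15 fell, by 1.18-fold. With the added demand of a change above 1.3-fold, 5 Cyp4 genes were lower, against 0.567% of all genes, and 0 were higher, against 0.707%. In 6 of the 9, the same genes that passed, every Ppara-/- array lay below every Ppara+/+ array, which held for 1.43% of all genes. The opposite, every Ppara-/- array above every Ppara+/+ array, held for 0 Cyp4 genes and for 2.88% of all genes.

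Cyp4a14, which hydroxylates medium- and long-chain fatty acids such as lauric acid, had log2 signals of 10.27, 10.44 and 10.54 (lowest, median, highest) in Ppara-/- livers and 12.96, 13.06 and 13.13 in Ppara+/+ livers. All Ppara-/- arrays lay far below all Ppara+/+ arrays, and both groups were tight. Its means were 10.41 ± 0.10 in Ppara-/- livers and 13.07 ± 0.06 in Ppara+/+ livers (SD, n = 6 each). This is a log2 fold change of -2.65 (SE 0.0509, 95% interval -2.77 to -2.54, adjusted p = 1.8e-10), or a signal 15.9% of that in Ppara+/+ livers. By fold change it ranked number 2 among the falls of all genes, and by p-value number 1.

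Cyp4a10, a close relative with similar substrates, gave log2 signals of 8.54, 8.78 and 9.07 in Ppara-/- livers and 11.04, 11.11 and 11.26 in Ppara+/+ livers. The genotypes were again well apart. Its mean was 8.78 ± 0.18 in Ppara-/- livers and 11.13 ± 0.10 in Ppara+/+ livers (SD, n = 6 each), which is 5.09-fold lower (log2 fold change -2.35, SE 0.0830, 95% interval -2.53 to -2.17, adjusted p = 2.8e-08). It ranked number 3 among the falls of all genes.

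Cyp4a31, a near-identical neighbour of Cyp4a10, had log2 signals of 9.97, 10.40 and 10.49 in Ppara-/- livers and 11.80, 11.99 and 12.10 in Ppara+/+ livers. The lowest Ppara-/- value came from female replicate 12, which was also the lowest array for Cyp4a10 and Cyp4a14, and the groups did not overlap. The mean was 10.33 ± 0.19 in Ppara-/- livers and 11.98 ± 0.12 in Ppara+/+ livers (SD, n = 6 each), 3.12-fold lower (log2 fold change -1.64, SE 0.0838, 95% interval -1.83 to -1.46, adjusted p = 5.8e-07). A probe set that names Cyp4a10, Cyp4a31 and Cyp4a32 together averaged 10.16 ± 0.14 in Ppara-/- livers and 12.25 ± 0.09 in Ppara+/+ livers, a log2 fold change of -2.09 (SE 0.0650, adjusted p = 9.0e-09). Because these copies are near-identical, a probe set that names one of them may read RNA of another, which was not tested.

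Cyp4a12a and Cyp4a12b are a recently duplicated pair, and Cyp4a12a makes a vessel-constricting hydroxylated arachidonic acid in the kidney of adult mice, where it is androgen-dependent. Cyp4a12a had log2 signals of 6.33, 6.82 and 7.64 in Ppara-/- livers and 7.69, 7.97 and 8.71 in Ppara+/+ livers. The highest Ppara-/- array, female replicate 12, came close to the lowest Ppara+/+ array, male replicate 2, without overlap. Its mean was 6.90 ± 0.44 in Ppara-/- livers and 8.10 ± 0.39 in Ppara+/+ livers (SD, n = 6 each), 2.30-fold lower (log2 fold change -1.20, SE 0.215, 95% interval -1.67 to -0.73, adjusted p = 0.0117).

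Cyp4a12b had log2 signals of 5.78, 6.38 and 6.999 in Ppara-/- livers and 7.23, 7.49 and 8.02 in Ppara+/+ livers. The same Ppara-/- arrays were lowest (female replicate 10) and highest (female replicate 12) for both genes of the pair, and among Ppara+/+ arrays female replicate 7 was highest for both. The mean of Cyp4a12b was 6.39 ± 0.40 in Ppara-/- livers and 7.55 ± 0.31 in Ppara+/+ livers (SD, n = 6 each), 2.23-fold lower (log2 fold change -1.16, SE 0.189, 95% interval -1.57 to -0.74, adjusted p = 0.0068). Cyp4a12a and Cyp4a12b were the only 2 of the 9 measured Cyp4 genes whose Ppara-/- mean lay below every array median, and pups of 1 genotype differed more in them than in the other Cyp4a genes. As a near-identical pair they may share probes, which was not tested.

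**Figure D1:**
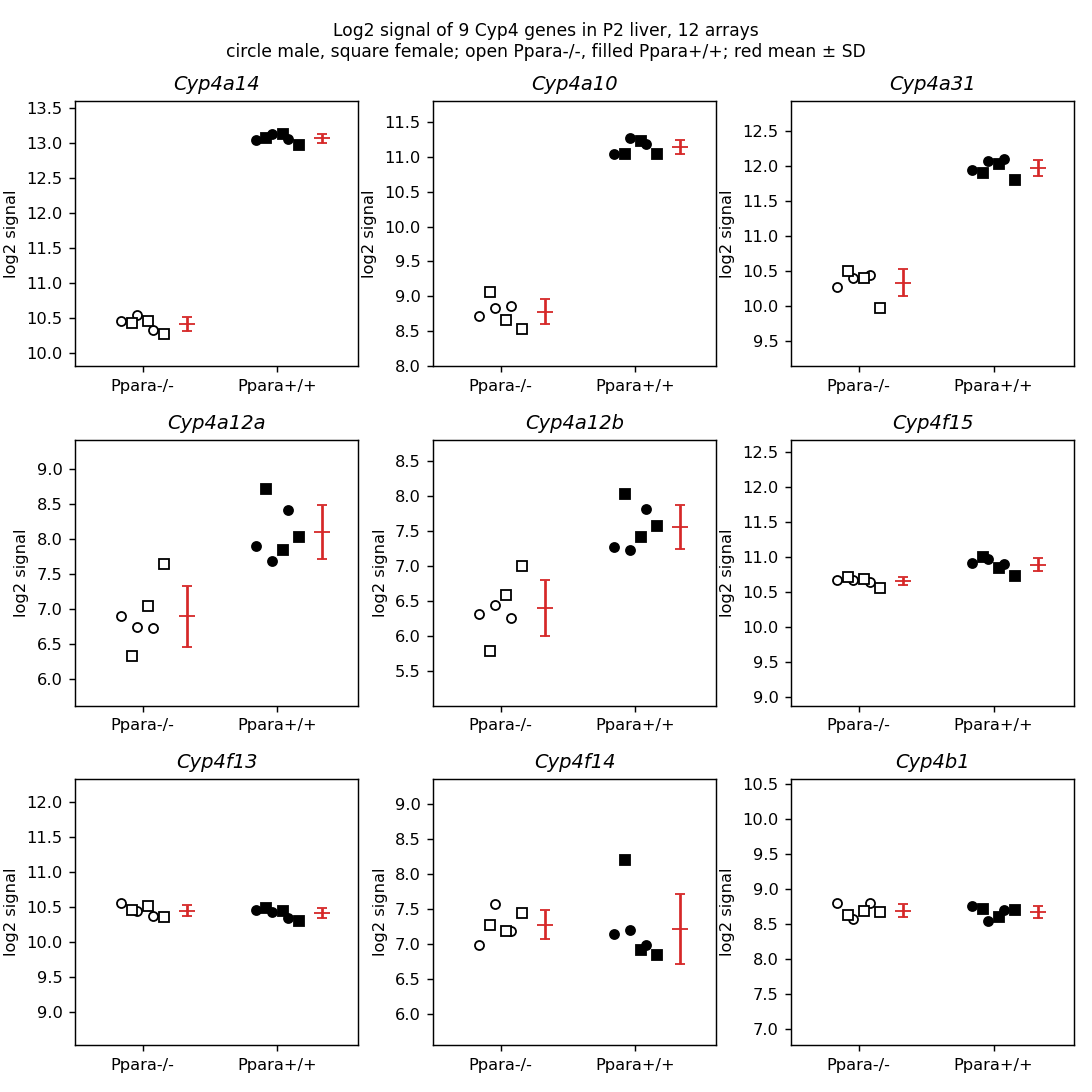
Log2 signal of the 9 measured Cyp4 genes, 1 panel per gene, with Ppara-/- livers (open) to the left of Ppara+/+ livers (filled), circles for males, squares for females, and the mean ± SD (n = 6) in red beside each group. Every panel spans the same range of log2 signal. The genotypes stand apart for Cyp4a14, Cyp4a10, Cyp4a31 and Cyp4a12b and nearly touch for Cyp4a12a and Cyp4f15. They overlap for Cyp4f13, Cyp4f14 and Cyp4b1, and 1 Ppara+/+ female stands at 8.21 for Cyp4f14.

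The sizes of the falls were compared between genes by an exact two-sided permutation test of the difference of their log2 fold changes, over all 924 arrangements of the arrays, with p-values adjusted over the 36 pairs of measured Cyp4 genes. The smallest p this design allows is 0.00216. Of the 10 pairs within the Cyp4a genes, 7 passed. Some of these set Cyp4a14 or Cyp4a10 against a Cyp4a12 gene, whose Ppara-/- mean lay below every array median. Whether low signal limited the falls of the Cyp4a12 genes was not tested. Cyp4a14 fell more than Cyp4a10 by 0.31 on the log2 scale (adjusted exact p = 0.00339). Cyp4a10 minus Cyp4a31 was -0.70, and Cyp4a14 minus Cyp4a31 was -1.01 (adjusted exact p = 0.00339 each). The order Cyp4a14, Cyp4a10, Cyp4a31 therefore held beyond the spread between pups for these probe sets. A probe set that read RNA of a near-identical copy would do so on every array. The test therefore cannot show that the genes themselves fell in that order.

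The other neighbours in that order were not separated over all arrays. Cyp4a31 minus Cyp4a12a was -0.44, with an exact interval of -1.02 to 0.19 (adjusted exact p = 0.205), and Cyp4a31 minus Cyp4a12b was -0.49, with an interval of -1.02 to 0.08 (adjusted exact p = 0.122). Without Ppara-/- replicate 10, Cyp4a31 minus Cyp4a12b was -0.64 and passed (adjusted exact p = 0.0234). Between the 2 Cyp4a12 genes the difference was -0.04, and its interval of -0.18 to 0.12 was narrow (adjusted exact p = 0.560). These intervals come from ordered array differences and cover 95.9%. All 20 pairs of a Cyp4a gene with a Cyp4f gene or Cyp4b1 passed.

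Among the Cyp4f genes, Cyp4f15 was the only measured one that passed. Mouse Cyp4f13, Cyp4f14 and Cyp4f15 lie in a cluster on chromosome 17, and Cyp4f14 encodes an enzyme that omega-hydroxylates leukotriene B4. RefSeq gives their promoters on GRCm38.p6, and the 250 bases before the start used by each promoter entry are shown 5′ to 3′ on the gene strand. They are shown because 1 of these 3 neighbouring relatives passed the genotype test and the others did not. Each of these starts lies inside the gene span given further below, so the last printed bases do too. Capitals mark ATTGG, the inverted CCAAT box that NF-Y binds.

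Cyp4f15, chr17:32685409-32685658, plus strand: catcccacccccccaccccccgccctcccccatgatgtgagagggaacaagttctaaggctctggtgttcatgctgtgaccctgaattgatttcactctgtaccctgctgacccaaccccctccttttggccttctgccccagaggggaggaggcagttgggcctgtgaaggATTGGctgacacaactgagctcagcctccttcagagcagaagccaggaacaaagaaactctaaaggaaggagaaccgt

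Cyp4f13, chr17:32947362-32947611, minus strand: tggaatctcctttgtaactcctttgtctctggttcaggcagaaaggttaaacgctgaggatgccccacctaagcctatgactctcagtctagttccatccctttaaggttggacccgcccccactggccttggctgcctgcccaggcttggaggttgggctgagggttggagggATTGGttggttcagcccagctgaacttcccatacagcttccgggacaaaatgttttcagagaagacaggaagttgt

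Cyp4f14, chr17:32917357-32917606, minus strand: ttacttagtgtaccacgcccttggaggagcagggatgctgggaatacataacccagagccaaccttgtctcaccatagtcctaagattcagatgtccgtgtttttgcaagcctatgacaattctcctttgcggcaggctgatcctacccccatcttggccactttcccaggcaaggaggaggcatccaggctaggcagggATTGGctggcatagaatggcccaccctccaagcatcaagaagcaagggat

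Each of the 3 promoters held a single ATTGG, starting 78 bases before the start in Cyp4f15, 76 in Cyp4f13 and 50 in Cyp4f14. Cyp4f14 had 4 promoter entries with different starts, of which the first is shown. In 3 of the 4 the same strand held ATTGG, 50, 64 or 77 bases before the start. The entry at chr17:32917038-32917337 held no ATTGG but 1 CCAAT, the same box in forward orientation. The motif was chosen after the sequences had been seen, and 22.1% of 32851 mouse promoters of 300 bases (250 before to 50 after the start) hold ATTGG on the gene strand. CCAAT or ATTGG on the gene strand is found in 37.4% of them. The PPAR response element, here 2 copies of AGGTCA in the same direction with any base between them and up to 2 mismatches in its 12 defined bases, was searched on both strands, and TATAAA on the gene strand. Promoters of Cyp4f13, Cyp4f14, Cyp4f15, Cyp4b1 and Cyp4v3 were searched, 8 entries for these 5 genes, and 0 held either motif, against 3.86% of all promoters for the repeat and 8.32% for TATAAA. Cyp4a10, Cyp4a14, Cyp4a31, Cyp4a12a and Cyp4a12b were not searched.

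Cyp4f15 had log2 signals of 10.55, 10.67 and 10.72 (lowest, median, highest) in Ppara-/- livers and 10.73, 10.91 and 10.99 in Ppara+/+ livers. The highest Ppara-/- array and the lowest Ppara+/+ array, both from females, differed by very little but did not overlap. The mean was 10.66 ± 0.06 in Ppara-/- livers and 10.89 ± 0.09 in Ppara+/+ livers (SD, n = 6 each), 1.18-fold lower (log2 fold change -0.23, SE 0.0488, 95% interval -0.34 to -0.13, adjusted p = 0.0301). The call was lost, with adjusted p between 0.0536 and 0.0775 and log2 fold changes between -0.24 and -0.21, when any of 9 arrays was left out, namely Ppara-/- replicates 4, 5, 6, 11 and 12 and Ppara+/+ replicates 1, 2, 3 and 8.

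Cyp4f13 had log2 signals of 10.36, 10.45 and 10.55 in Ppara-/- livers and 10.30, 10.43 and 10.49 in Ppara+/+ livers. The groups overlapped over nearly their whole range. Its log2 fold change was 0.04, and the 95% interval of -0.07 to 0.14 leaves room for only a small difference in either direction (adjusted p = 0.767). Cyp4f13 minus Cyp4f15 in log2 fold change was 0.27 (adjusted exact p = 0.00339).

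Cyp4f14 had log2 signals of 6.99, 7.24 and 7.57 in Ppara-/- livers and 6.84, 7.07 and 8.21 in Ppara+/+ livers. The value of 8.21 came from female replicate 7, and the other Ppara+/+ arrays lay between 6.84 and 7.21. The log2 fold change was 0.06 with a wide 95% interval of -0.39 to 0.51 (adjusted p = 0.931). Without replicate 7 it was 0.26, with an interval of 0.03 to 0.50 (adjusted p = 0.205). Cyp4f14 minus Cyp4f15 was 0.29 (exact interval -0.32 to 0.78, adjusted exact p = 0.205). Without replicate 7 that difference was 0.47 and passed (adjusted exact p = 0.00599), so whether the pups separate these genes rests on that array.

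Cyp4b1, an enzyme of lung and other tissues known for activating plant and other toxins, had log2 signals of 8.57, 8.68 and 8.81 in Ppara-/- livers and 8.54, 8.70 and 8.76 in Ppara+/+ livers. The groups overlapped fully, and the log2 fold change was 0.02 (95% interval -0.10 to 0.14, adjusted p = 0.890). Cyp4f15 minus Cyp4b1 was -0.26 (adjusted exact p = 0.0107). Cyp4v3 is the mouse counterpart of human CYP4V2, the gene of a crystalline retinal dystrophy. The probe set that names Cyp4v3 and Klkb1 ran from 10.27 to 10.50 in Ppara-/- livers and from 10.11 to 10.35 in Ppara+/+ livers. These ranges overlapped, the log2 fold change was 0.14 (95% interval 0.03 to 0.26, adjusted p = 0.232), and the share of either gene in the signal cannot be told apart.

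The falls of Cyp4a14, Cyp4a10 and Cyp4a31 were of similar size in male and female pups. Within females and within males, 3 Cyp4 genes each passed (Cyp4a10, Cyp4a14 and Cyp4a31), where 0.487% of all genes were called lower within females and 0.466% within males. The log2 fold change of Cyp4a14 was -2.67 in females and -2.64 in males, that of Cyp4a10 was -2.35 in each, and that of Cyp4a31 was -1.62 in females and -1.67 in males. Cyp4a12a, at -1.20 in females and -1.21 in males, did not pass within either sex (adjusted p = 0.200 and 0.196), and neither did Cyp4a12b, at -1.22 and -1.10 (0.117 and 0.176). Cyp4f15, at -0.20 in females and -0.26 in males, also did not pass within either sex (adjusted p = 0.401 and 0.210).

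The interaction of genotype and sex passed for 0 of the 9 Cyp4 genes in limma, 0 had an unadjusted p under 0.05, and the share of all genes called was 0%. Over all probe sets the interaction was called for 0, with 1004 at an unadjusted p under 0.05 and a smallest adjusted p of 0.693. Its 95% interval ran from -0.20 to 0.27 for Cyp4a14, and from -1.01 to 0.99 for Cyp4a12a, where only a large difference between the sexes would have been seen. Sex itself passed for 0 Cyp4 genes, against 0.0401% of all genes. At an unadjusted p under 0.05 there were 0 Cyp4 genes, against 2.78% of all genes, a share too small for 0 of 9 to stand out. Male minus female was -0.20 for Cyp4a12a (95% interval -0.67 to 0.27) and -0.17 for Cyp4a12b (-0.59 to 0.24), genes that are higher in males in the adult mouse.

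Among pups of 1 genotype, Cyp4a10, Cyp4a14 and Cyp4a31 were compared pairwise in 6 relations over 6 arrays each. Pearson's r ran from 0.36 to 0.82 and Spearman's rho from -0.03 to 0.83. The smallest exact permutation p was 0.0472, for Cyp4a10 with Cyp4a31 in Ppara-/- livers (r = 0.81, adjusted p = 0.129; rho = 0.83, exact p = 0.0583, adjusted p = 0.350). Without the 2 arrays farthest from the median of Cyp4a10 that r was 0.48. None of the 6 relations passed after adjustment.

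The Cyp4a genes lie side by side on chromosome 4 (GRCm38.p6), from Cyp4a12a at chr4:115299046-115332815 over Cyp4a12b at chr4:115411624-115439034, Cyp4a14 at chr4:115486200-115496158 and Cyp4a10 at chr4:115518287-115533649 to Cyp4a31 at chr4:115563627-115579015. Cyp4x1, which lies before them, and Cyp4b1, at chr4:115624698-115647721 just after them, did not pass, with log2 fold changes of -0.08 and 0.02. Of the 5 nearest measured genes on each side of this cluster, 10 in all, 0 were lower and 0 were higher, and their log2 fold changes ran from -0.18 to 0.07. The nearest were Pdzk1ip1 before the cluster at 0.05 and Efcab14 after it at 0.07.

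Cyp4f15, at chr17:32685631-32703352, is parted from Cyp4f14 (chr17:32903357-32917376) and Cyp4f13 (chr17:32924688-32947415) by 4 measured zinc finger genes, none of which passed. Of the 10 nearest measured genes outside the Cyp4f cluster 0 passed, where 1.12% of all genes were called lower and 1.99% higher. Their log2 fold changes ran from -0.10 to 0.07. Among the measured genes of the chromosome 4 cluster and its nearest neighbours, those that passed as lower ran from Cyp4a12a to Cyp4a31. The rest of chromosome 4 was not examined in this way.

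**Figure D2:**
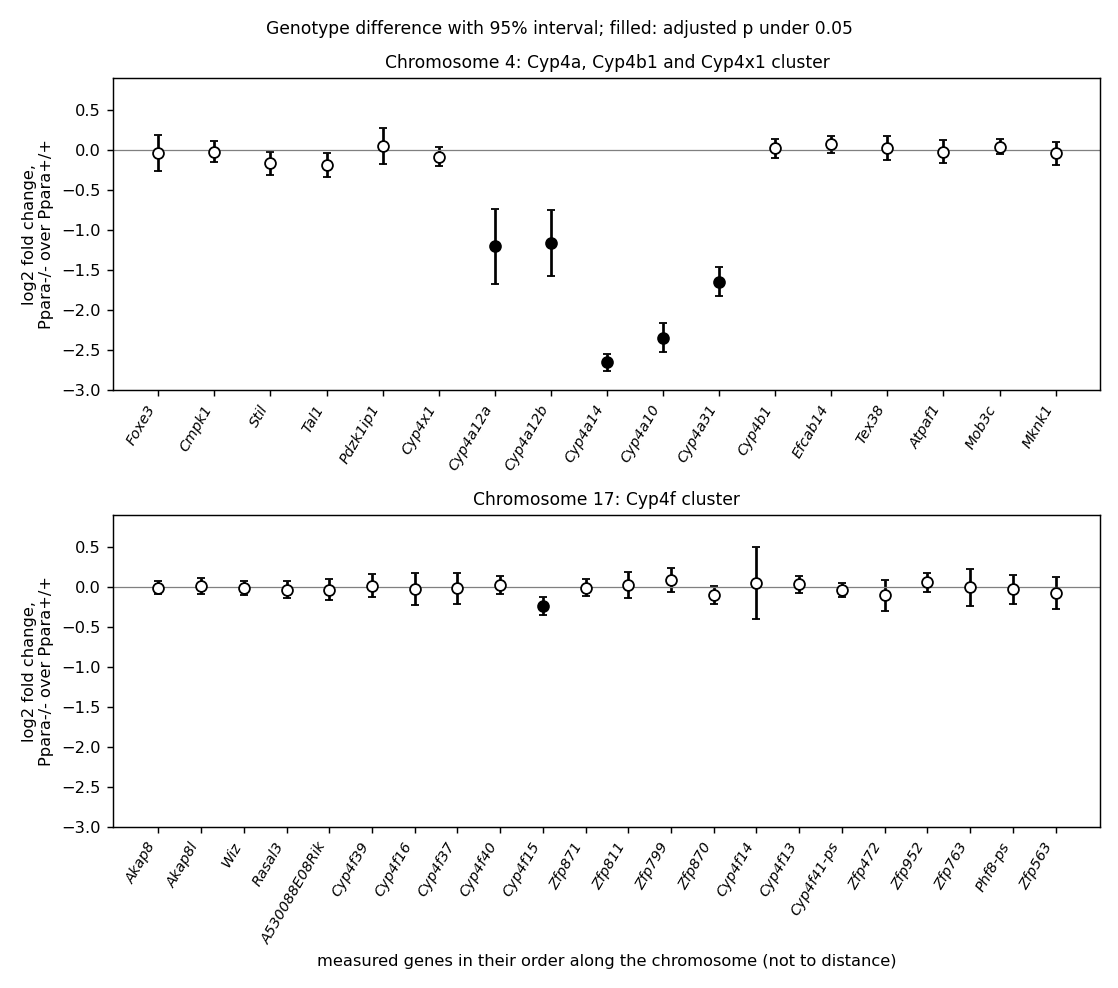
Log2 fold change (Ppara-/- over Ppara+/+) with its 95% interval for measured genes in their order along the Cyp4a region of chromosome 4 (upper panel) and the Cyp4f region of chromosome 17 (lower panel), filled where the adjusted p was under 0.05. The 5 filled genes of the upper panel are the Cyp4a genes, between -1.16 and -2.65, and Cyp4f15 is the only filled gene of the lower panel, at -0.23.

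Of 10 other Cyp4 genes of the mouse, 6 were measured alone, 0 of these passed, and their median log2 fold change was 0.01. Cyp4a29, Cyp4a30b, Cyp4a32 and Cyp4f17 were not measured alone, and Cyp4a32 stands only on the shared probe set that fell together with Cyp4a10 and Cyp4a31. Cyp4f18, which oxidises leukotriene B4 in neutrophils, had the largest value, 0.22 (adjusted p = 0.334). Outside the family, Cyp2u1, a P450 that hydroxylates long-chain fatty acids at or near the end of the chain, was higher in Ppara-/- livers, with 8.07 ± 0.10, than in Ppara+/+ livers, with 7.71 ± 0.09 (SD, n = 6 each), and its log2 fold change was 0.37 (SE 0.0599, adjusted p = 0.0066). Its direction was thus opposite to that of the Cyp4a genes. Cyp2e1, which also hydroxylates fatty acids near the chain end, was at 0.02 (adjusted p = 0.783).

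Microsomal P450 enzymes take electrons from cytochrome P450 reductase and cytochrome b5. Of 5 genes of this system 4 were measured alone, and 0 passed, with a median log2 fold change of 0.03. Cyb5r3, the cytochrome b5 reductase, was at 0.11 (adjusted p = 0.214) and Cyb5a, cytochrome b5 itself, at 0.02 (adjusted p = 0.791).

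Of 6 genes for the oxidation of omega-hydroxy fatty acids to dicarboxylic acids, 2 fell, 0 rose and the median log2 fold change was -0.04. Adh4, an alcohol dehydrogenase that accepts omega-hydroxy fatty acids and retinol, ran from 7.13 to 7.54 in Ppara-/- livers and from 8.32 to 8.81 in Ppara+/+ livers. No array overlapped, and the fall was 2.32-fold (log2 fold change -1.21, SE 0.0942, adjusted p = 2.7e-05). Aldh3a2, the fatty aldehyde dehydrogenase, ran from 10.96 to 11.10 in Ppara-/- livers and from 11.18 to 11.40 in Ppara+/+ livers, with a log2 fold change of -0.31 (SE 0.0394, adjusted p = 0.0011). Adh1, an abundant liver alcohol dehydrogenase, was at 0.07 (adjusted p = 0.502).

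Peroxisomal chain shortening of dicarboxylic acids was read from 11 of 12 genes, of which 6 fell and 1 rose, with a median log2 fold change of -0.23. Decr2, the peroxisomal dienoyl-CoA reductase, fell by 1.80 and Acaa1b, a peroxisomal thiolase, by 1.79 on the log2 scale. Hsd17b4 and Ehhadh, the D- and L-bifunctional proteins of the peroxisome, fell by 0.80 and 0.78. Acaa1a, the other thiolase, fell by 0.35 and Abcd3, which carries long-chain and dicarboxylic acyl groups into the peroxisome, by 0.23 (adjusted p = 0.0217). The call on Abcd3 was lost without any 1 of Ppara-/- replicates 4, 5, 10 and 11 or Ppara+/+ replicates 1, 2, 8 and 9 (adjusted p between 0.0535 and 0.0641). Acot4, a thioesterase that releases succinate from its CoA ester, rose by 0.31 (adjusted p = 0.0039). The other 4 did not pass: Acot8 was at -0.21 (adjusted p = 0.0780), Crat at -0.18 (adjusted p = 0.0744), with every Ppara-/- array below every Ppara+/+ array, Scp2 at -0.09 and Crot at 0.08.

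**Figure D3:**
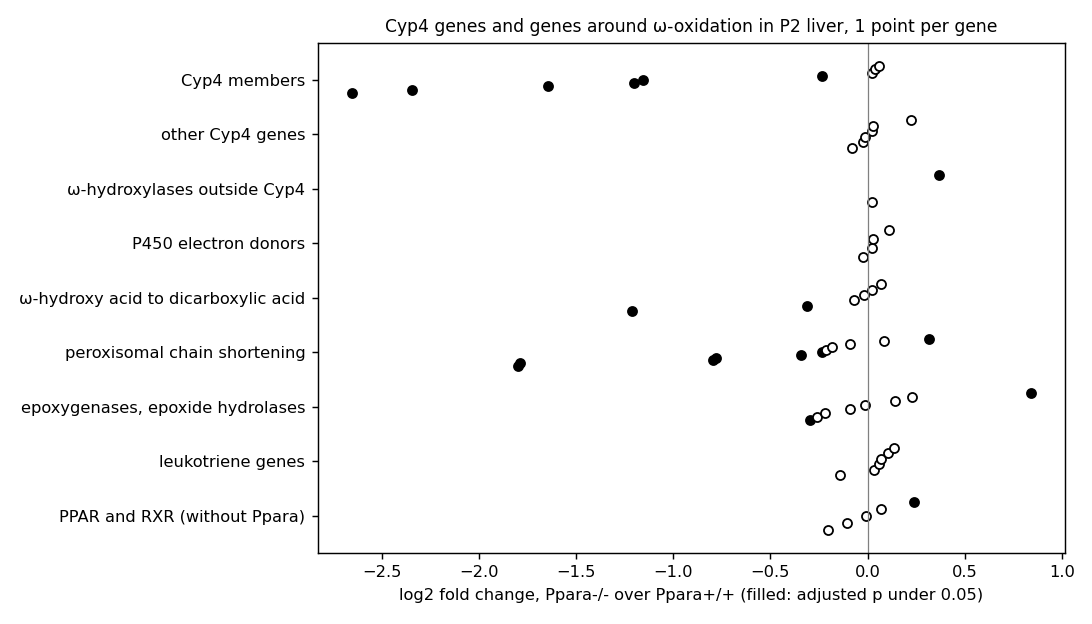
Log2 fold change (Ppara-/- over Ppara+/+) of the 9 measured Cyp4 genes in the top row and of genes around omega-oxidation in the rows below, 1 point per gene, filled where the adjusted p was under 0.05. Filled points left of 0 are 6 in the top row, 2 among genes that turn omega-hydroxy acids into dicarboxylic acids and 6 among peroxisomal genes. The row of epoxygenases and epoxide hydrolases holds 1 more, Ephx2. Cyp2c50 is the filled point farthest to the right, at 0.84.

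Arachidonic acid, a substrate of Cyp4a enzymes, is also turned into epoxides by other P450s. Of 8 measured genes of that route (9 listed) 1 fell and 1 rose, and the median was -0.05. Ephx2, the soluble epoxide hydrolase, had a log2 fold change of -0.30 (SE 0.0372, adjusted p = 0.0011). Cyp2c50, an epoxygenase, rose by 0.84 (SE 0.161, adjusted p = 0.0180), a call that was lost without Ppara+/+ replicate 1 (adjusted p = 0.0506). Cyp2j6 passed as higher without Ppara+/+ replicate 7 (adjusted p = 0.0450). Of 6 measured genes of leukotriene synthesis, sensing and inactivation 0 passed, with a median of 0.06. Alox5ap, the 5-lipoxygenase-activating protein, was at 0.14 (adjusted p = 0.127).

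Among the PPAR and RXR receptors, Pparg was higher in Ppara-/- livers (9.738 ± 0.03) than in Ppara+/+ livers (9.497 ± 0.09; SD, n = 6 each), and the difference was 0.24 on the log2 scale (SE 0.0465, adjusted p = 0.0189). Besides Ppara, 0 of the other receptors fell. Rxra, the main partner of PPARα in liver, was at 0.07 (adjusted p = 0.555).

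In whole liver, fewer cells of a type and less RNA per cell cannot be told apart. Of 8 marker lists, 0 of their measured genes passed. The 7 hepatocyte markers had a median log2 fold change of 0.02 and summed linear signals of 97045 to 99102 in Ppara-/- livers and 95908 to 99628 in Ppara+/+ livers, which overlap. The 9 Kupffer cell markers had a median of 0.21 (lowest 0.10, highest 0.28), with sums of 12635 to 14240 in Ppara-/- livers and 10429 to 13967 in Ppara+/+ livers. Medians were 0.12 for 6 endothelial, 0.10 for 5 stellate cell, 0.08 for 7 granulocyte, 0.06 for 4 bile duct and -0.17 for 4 erythroid markers. The 4 pancreatic acinar markers had sums of 537 to 4708 in Ppara-/- livers and 517 to 1933 in Ppara+/+ livers, with a median of 0.69. Leaving out Ppara+/+ replicate 7, the highest Ppara+/+ sum lay below the lowest Ppara-/- sum for Kupffer cell (12031 against 12635), granulocyte (22101 against 22614) and endothelial markers (8686 against 8857). For erythroid markers the lowest Ppara+/+ sum (19965) then lay above the highest Ppara-/- sum (19941). Sums of the remaining lists still overlapped. Replicate 7 held the highest Ppara+/+ sum for Kupffer cell, granulocyte and endothelial markers and the lowest for erythroid markers. Leaving it out could therefore only move these groups apart, so the gaps do not test a difference between genotypes. How many other genes separate without that array was not determined. The part of these differences in the Cyp4 results was not tested.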

How the data were processed

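Liver RNA of 6 Ppara-/- and 6 Ppara+/+ pups was measured on 1 array per pup, and fetal arrays are not analysed here. The authors summarised the arrays by RMA (version not given in the sources used here), and the deposited log2 values per probe set, already normalized across arrays, were used as deposited. The number of arrays limits the precision.

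Groups came from the sample titles. All probe sets entered a limma 3.58.1 model (R 4.3.3; lmFit, eBayes) of genotype and sex with 9 residual degrees of freedom, and a fit of 4 groups gave the interaction and the contrasts within each sex. Of the probe sets, 21789 named 1 gene, 1621 several and 12146 none. Where several named a gene alone, the one with the highest mean was used. Permutation tests used Python 3.11.15, NumPy 2.4.6 and SciPy 1.17.1. The scripts were tested on simulated data. Gene positions and promoters came from RefSeq (GRCm38.p6), matched by symbol. Proteins were not compared.

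The Cyp4 genes, lists and tests were chosen with earlier results of these data known. Named were all Cyp4 genes, Ppara, up to 4 passing genes per list and direction, up to 2 list genes that did not pass, and the nearest neighbours. Acaa1a, Abcd3, Cyp2j6, Crat, Acot8, Tal1 and Stil were named after their values were seen. Alternatives were no sex term, 4 groups, quantile normalization, median centring, a filter on the 40th percentile of signal, probe sets of 1 gene only, a robust trend, array weights, the mean of probe sets, an exact Mann-Whitney test, a 1.3-fold minimum, and each array left out in turn.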

Additional observations from a re-analysis of the deposited data

Results flagged for a closer look

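Cyp4f14 in Ppara+/+ female replicate 7 stood apart from its group, at a log2 signal of 8.21 against 6.84 to 7.21 in the other 5 Ppara+/+ livers. Its gap to the next array passed Dixon's critical value of 0.625 for 6 samples. Of 20 combinations of gene and genotype examined this was the only 1 past that value, and chance flags about 1 in 20. The same array had the lowest summed erythroid signal of the Ppara+/+ livers, 17105 against 19965 to 20876 in the others, and the highest sums of that genotype for 5 other marker lists. These were 13967 against 10429 to 12031 for Kupffer cell, 23706 against 20856 to 22101 for granulocyte, 9090 against 8033 to 8686 for endothelial, 9822 against 8267 to 9542 for stellate cell and 99628 against 95908 to 98586 for hepatocyte markers. The part of these in the Cyp4f14 value was not tested.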

How the results depend on the processing

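The count of 6 lower Cyp4 genes stayed at 6 under the alternative fits, normalizations and filters, was 5 with a 1.3-fold minimum and 5 to 6 with each array left out. It was 0 with the exact Mann-Whitney test after adjustment. That test cannot go below 0.00216 for 6 against 6, and its smallest adjusted p was 0.0691. The 6 Cyp4 genes reached that value, with every Ppara-/- array below every Ppara+/+ array, as held for 1.43% of all genes. The 5 Cyp4a genes passed in each of 21 other alternatives, with log2 fold changes of -2.68 to -2.63 for Cyp4a14 and -1.34 to -1.05 for Cyp4a12a, and Cyp4f15 passed in 12. Several of these alternatives left the fold changes as they were and altered only p-values. They were no sex term, 4 groups, the robust trend, the signal filter, probe sets of 1 gene only and the mean of probe sets. The counts of Cyp4 genes called higher, for sex or for the interaction stayed at 0. Pathway genes called lower ran from 8 to 10 and higher from 3 to 5 with each array left out. Without Ppara+/+ replicate 7 Crat passed as lower (adjusted p = 0.0362), and without Ppara+/+ replicate 8 so did Acot8 (adjusted p = 0.0284). Pairs of Cyp4 genes past the test numbered 29, and 29 to 30 with each array left out, the added pair being Cyp4f14 with Cyp4f15 without Ppara+/+ replicate 7 and Cyp4a31 with Cyp4a12b without Ppara-/- replicate 10. No paired analysis was possible because the genotypes share no replicate number and the labels do not tie pups to litters.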
